A study of Mus musculus with 50 samples.

Results

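The axon guidance ligands and receptors are the ephrins and their Eph receptors, the semaphorins with their plexin and neuropilin receptors, the Slits with their Robo receptors, and the netrins with Dcc and the Unc5 receptors. They were selected by gene symbol, with no measured value in the rule, but with earlier results of these data known. Of the 18055 genes of the RNA-seq table, 68 carried a symbol of these families. Each is described below with its RNA level and its promoter peaks in every line. Another 3 annotated genes of the families, Epha6, Ntn4 and Ntng1, were not analysed here. The cells were mouse embryonic stem cells (ESCs) of the line E14 and CRISPR-edited clones of it. They were grown on gelatin in 2i/LIF medium supplemented with fetal calf serum. WT was the unedited E14 line. Ezh2 KO lacked Ezh2, and Ezh1/2 dKO lacked both Ezh1 and Ezh2. Ezh2 Y726D and Ezh2 R685C carried a point mutation in the catalytic domain of Ezh2 in cells that also lacked Ezh1. Ezh1/2 dKO cells transfected with a plasmid for HA-tagged human EZH1 and selected with puromycin were also used, for HA ChIP-seq only. The SUZ12 and H3K27me3 labels of Ezh2 Y726D name the point mutation without the Ezh1 knockout and were taken as the same line. RNA-seq covered WT and every mutant line except Ezh2 R685C, 4 lines in all, with 2 libraries each. ChIP-seq gave 1 peak list per target and line, and H3K27ac was analysed here in the 4 mutant lines only. Each genotype was represented by a clonal line, so a difference between genotypes cannot be told apart from a difference between clones.

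Guidance cues are read by growing axons and migrating cells: ephrins, semaphorins, Slits and netrins attract or repel a cell that carries the matching receptor. Many of them are transcribed mainly in differentiated cells, and many have CpG-rich promoters of the kind that Polycomb repressive complex 2 (PRC2) occupies in ESCs. PRC2 holds the core subunit SUZ12 and either EZH1 or EZH2 as its methyltransferase, and it places the repressive mark H3K27me3. Acetylation of the same lysine, H3K27ac, marks active promoters and enhancers.

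The 250 bases upstream of a start site are shown for 6 of the guidance genes whose RNA was called different between lines or that had a SUZ12 peak in Ezh1/2 dKO, ordered by their mean rank in the RNA tests. They differ in CpG content, and each CG dinucleotide is in capitals. The start sites are those of RefSeq (table of GRCm38.p6), and each sequence was found again by an exact match in mm9. Efna5 lies on the minus strand at chr17:63230667-63230916, Sema4a on the minus strand at chr3:88263024-88263273 and Epha1 on the minus strand at chr6:42323268-42323517. Sema5b lies on the plus strand at chr16:35540981-35541230, Slit2 on the plus strand at chr5:48374144-48374393 and Sema7a on the plus strand at chr9:57787669-57787918. No stretch holds an annotated exon, and the Sema5b stretch was placed 217 bases further upstream for that reason.
Efna5: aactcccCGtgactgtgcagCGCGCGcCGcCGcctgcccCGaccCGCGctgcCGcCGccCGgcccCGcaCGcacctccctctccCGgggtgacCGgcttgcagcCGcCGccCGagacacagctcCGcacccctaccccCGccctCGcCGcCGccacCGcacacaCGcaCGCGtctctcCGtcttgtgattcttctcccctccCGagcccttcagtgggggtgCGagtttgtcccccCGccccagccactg
Sema4a: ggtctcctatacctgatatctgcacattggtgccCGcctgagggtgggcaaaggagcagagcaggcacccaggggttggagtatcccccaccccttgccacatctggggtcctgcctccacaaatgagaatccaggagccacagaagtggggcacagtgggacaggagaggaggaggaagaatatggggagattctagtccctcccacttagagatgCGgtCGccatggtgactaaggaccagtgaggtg
Epha1: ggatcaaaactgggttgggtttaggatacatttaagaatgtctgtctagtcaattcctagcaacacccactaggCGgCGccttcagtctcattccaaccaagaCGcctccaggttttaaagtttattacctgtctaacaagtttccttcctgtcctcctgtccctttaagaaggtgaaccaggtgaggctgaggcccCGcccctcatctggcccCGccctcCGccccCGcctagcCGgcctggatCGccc
Sema5b: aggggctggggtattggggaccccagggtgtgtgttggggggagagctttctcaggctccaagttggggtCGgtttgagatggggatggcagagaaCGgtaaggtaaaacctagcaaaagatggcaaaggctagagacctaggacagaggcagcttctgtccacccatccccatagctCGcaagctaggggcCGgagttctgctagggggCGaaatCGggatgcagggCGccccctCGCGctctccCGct
Slit2: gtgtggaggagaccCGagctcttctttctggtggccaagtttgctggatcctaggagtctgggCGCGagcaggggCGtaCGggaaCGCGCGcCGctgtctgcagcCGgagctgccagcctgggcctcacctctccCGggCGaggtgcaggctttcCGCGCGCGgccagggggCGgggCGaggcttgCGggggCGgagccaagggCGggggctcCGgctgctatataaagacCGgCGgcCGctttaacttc
Sema7a: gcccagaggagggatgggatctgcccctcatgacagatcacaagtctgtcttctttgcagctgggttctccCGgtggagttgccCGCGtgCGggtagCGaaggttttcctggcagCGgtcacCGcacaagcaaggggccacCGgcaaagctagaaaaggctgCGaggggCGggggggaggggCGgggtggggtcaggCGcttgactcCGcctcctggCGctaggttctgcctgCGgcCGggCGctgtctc
The stretches hold 32 CG dinucleotides at Efna5, 25 at Slit2, 17 at Sema7a, 10 at Sema5b, 9 at Epha1 and 3 at Sema4a. CG is its own complement, so both strands hold the same number, and 97.6% of the 13062 promoters of this length in the table hold at least 1. At least 10 were found at 42 of the 58 guidance genes with a RefSeq promoter (72.4%) and at 63.6% of all promoters. The median was 16 in the guidance genes and 14 in all genes. Guidance genes with a SUZ12 peak in WT had a median of 18 (n = 35) and those without one a median of 12 (n = 23). In WT, SUZ12 peaks covered all 250 bases at Efna5, Sema5b and Sema7a and no base at Sema4a, Epha1 and Slit2. Slit2 and Epha1 had a SUZ12 peak in WT downstream of the stretch, at chr5:48374426-48377763 and chr6:42322504-42323046. Sema4a had none within 5 kb. H3K27ac reached the Sema5b stretch over 250 bases in Ezh2 Y726D and over 4 bases in Ezh1/2 dKO, and touched none of the other 5 stretches in any of the 4 mutant lines.

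The RNA-seq libraries held 3604123 to 5181553 reads, and values are normalized counts, in which 1 read is worth 0.824 to 1.33. Ezh2 stood at 546 to 598 in WT, at 422 to 613 in Ezh2 Y726D and at 0.824 to 1.78 in both knockout lines. Ezh1 stood at 227 to 378 in WT and Ezh2 KO and at 14 to 24.1 in Ezh1/2 dKO and Ezh2 Y726D, so the targeted genes followed the labels. None of the 10 ESC markers was among the called genes of any comparison, and their summed level was 14034 to 17383 in all libraries. The summed level of 9 primitive endoderm markers was 375 to 678 in WT and Ezh2 KO and 1018 to 1768 in Ezh1/2 dKO and Ezh2 Y726D. Most of this sum was Col4a1 (61.9 to 147 against 660 to 954) and Lama1, which overlapped between lines. Col4a1, Dab2 and Gata4 rose in Ezh1/2 dKO and Col4a1 in Ezh2 Y726D. In Ezh1/2 dKO, Sox17 and Pdgfra lay within their range in WT (0 to 2.89 and 2.67 to 15.4). The 7 trophectoderm and epithelial markers summed to 365 to 632 and to 709 to 1332 in the same pairs of lines. Gata3, Krt8 and Krt18 were higher than in WT in Ezh1/2 dKO and Ezh2 Y726D. Tfap2c overlapped WT in both, and Eomes in Ezh1/2 dKO. The fibroblast markers summed to 4.81 to 16.7 against 86.1 to 115. Thy1, the only one of them tested, made up most of that sum and rose in Ezh1/2 dKO and Ezh2 Y726D. No neural or mesoderm marker was among the genes called against WT. Among single markers, Foxa2 (endoderm) stood at 0 to 0.963, Elf5 (trophectoderm) at 0 to 2.90 and Dcn (fibroblasts) at 0 to 2.47 in all libraries. Others had higher values in Ezh1/2 dKO than in WT: Gata6 stood at 7.42 to 11.5 against 0 to 1.93, Sox7 at 25.6 to 61.3 against 3.85 to 4.0 and the collagen gene Col1a1 at 4.12 to 11.5 against 0 to 1.33. Cdx2, a trophectoderm factor, was at 440 in Ezh2 Y726D replicate 2 and at 1.05 to 83.5 in the other libraries. The part of other cell types in the results below was not tested. In bulk RNA, fewer cells that express a gene and less RNA of it per cell cannot be told apart. Nothing in the labels says that the libraries of a line came from separate cultures, so the p-values measure the spread between these libraries only.

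In WT, SUZ12 lay within 5 kb of an annotated start site at 43 of the 68 guidance genes (63.2%), against 16.9% of the 17448 genes matched to the annotation. H3K27me3 lay at 45 (66.2%), against 21.5% of all genes. Both were present at 39 of the guidance genes and neither at 19, against 2672 and 13425 of all genes. SUZ12 without H3K27me3 was found at Efnb1, Ntn1, Sema4d and Slit3, and H3K27me3 without SUZ12 at Efna1, Efna2, Epha3, Sema3b, Sema3c and Sema4a. The promoter windows of the guidance genes had a median of 10177 bp and those of all genes 10027 bp, because a gene with several start sites has a longer window. The strongest SUZ12 summit lay within 1 kb of a start site at 33 of the 43 genes, and downstream of the start at 38. Over all 43 genes the median signed distance was 415 bp downstream. The strongest SUZ12 peak of any guidance gene was at Sema5b, a transmembrane semaphorin, with a -log10 p of 195 in WT. With 1 list per target and line there is no replicate check of these counts, and lists of different depth can differ in length. The reads behind each list are unknown.

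**Figure D1:**
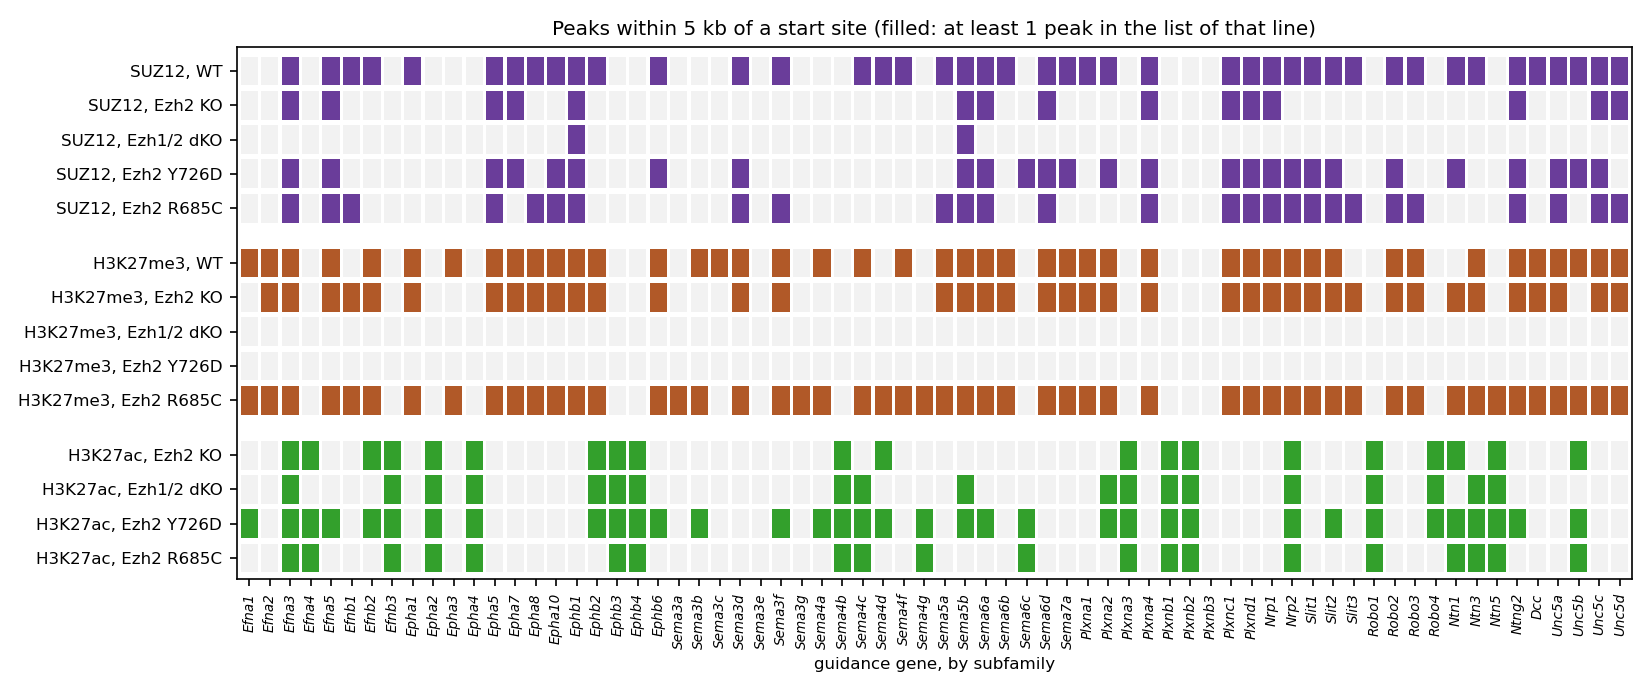
Promoter peaks of the 68 guidance genes, one column per gene grouped by subfamily and one row per target and line, filled where the list of that line holds at least 1 peak within 5 kb of a start site. The H3K27me3 rows of Ezh1/2 dKO and Ezh2 Y726D are empty, while the SUZ12 row of Ezh2 Y726D is filled at 27 genes.

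In Ezh2 KO, SUZ12 was listed at 15 guidance genes, all of them among the 43 of WT, and at 4.79% of all genes (835, of which 834 had it in WT). H3K27me3 was still listed at 40 guidance genes in Ezh2 KO (16.7% of all genes), 37 of which had it in WT. With the lists of a target, that of Ezh1/2 dKO aside, shortened to the same number of strongest peaks, SUZ12 lay at 18 guidance genes in WT and 15 in Ezh2 KO, and H3K27me3 at 29 in WT and 35 in Ezh2 KO, so the order of the H3K27me3 counts of these lines depended on list length. The 15 genes with SUZ12 in both lines were Efna3, Efna5, Epha5, Epha7, Ephb1, Nrp1, Ntng2, Plxna4, Plxnc1, Plxnd1, Sema5b, Sema6a, Sema6d, Unc5c and Unc5d, and all 15 carried H3K27me3. The other 25 genes with H3K27me3 in Ezh2 KO had no SUZ12 peak listed there. Over all genes, all 835 with SUZ12 in Ezh2 KO carried H3K27me3, and 2075 of the 2910 with H3K27me3 had no SUZ12. The median of the strongest H3K27me3 -log10 p at guidance genes was 143 in Ezh2 KO and 20.7 in WT, against 72.3 and 17.5 at all genes with a peak. Such a score depends on the depth and background of its library and carries no spike-in. It therefore does not compare the amount of a mark between lines. By western blot the paper found bulk H3K27me3 seemingly abolished in Ezh2 KO, while its ChIP-seq still detected the mark at PRC2 sites.

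In Ezh1/2 dKO no guidance gene had an H3K27me3 peak, against 0.103% of all genes. SUZ12 was listed at Ephb1 and Sema5b (1.15% of all genes). At Ephb1, an Eph receptor tyrosine kinase, the -log10 p was 93.4 in WT, 32.3 in Ezh2 KO and 10.8 in Ezh1/2 dKO, close to the lists' minimum of 10. At Sema5b it was 195, 60.3 and 14.5 in the same lines.

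The point mutants differed in H3K27me3 at the guidance genes. Ezh2 Y726D had SUZ12 at 27 (11.9% of all genes) and H3K27me3 at none (1.11% of all genes). Ezh2 R685C had SUZ12 at 27 (9.61% of all genes) and H3K27me3 at 52 (27.2% of all genes). The like counts of SUZ12 depended on the peak rule: among peaks of a -log10 p of at least 20 they were 8 in Ezh2 Y726D and 18 in Ezh2 R685C, and with 500 bases of overlap 19 and 26. All 27 SUZ12 genes of Ezh2 Y726D lacked an H3K27me3 peak, and all 27 of Ezh2 R685C had one. The same held for 2055 of 2077 and 1671 of 1676 of all genes with SUZ12 in these lines, so it was not particular to guidance genes. Of the 27 in Ezh2 Y726D, 26 had SUZ12 in WT and 1, Sema6c, did not. In Ezh2 R685C all 27 had SUZ12 in WT. Of all genes with SUZ12 in these lines, 1774 of 2077 and 1625 of 1676 had it in WT. SUZ12 was listed in WT, Ezh2 KO, Ezh2 Y726D and Ezh2 R685C together at 13 guidance genes and at 741 of all 17448 genes. The 13 were Efna3, Efna5, Epha5, Ephb1, Nrp1, Ntng2, Plxna4, Plxnc1, Plxnd1, Sema5b, Sema6a, Sema6d and Unc5c. The median strongest SUZ12 -log10 p of guidance genes with a peak was 36.0 in WT, 24.6 in Ezh2 KO, 17.1 in Ezh2 Y726D and 21.9 in Ezh2 R685C.

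HA-tagged human EZH1 (HA-EZH1) was followed in Ezh1/2 dKO cells transfected with a plasmid for it, with untagged Ezh1/2 dKO cells as the background of the antibody. HA peaks lay at 32 guidance genes with HA-EZH1 (12.5% of all genes) and at 4 in untagged cells (3.25% of all genes). Ephb1, Ntn5, Sema3b and Sema6a had an HA peak in both, so the tag was not needed for a peak there. The 28 with a peak only in the HA-EZH1 line all had SUZ12 in WT, and 13 of them were among the 15 that held SUZ12 in Ezh2 KO. Of all 1818 genes with a peak only in the HA-EZH1 line, 1621 had SUZ12 in WT and 795 in Ezh2 KO.

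**Figure D2:**
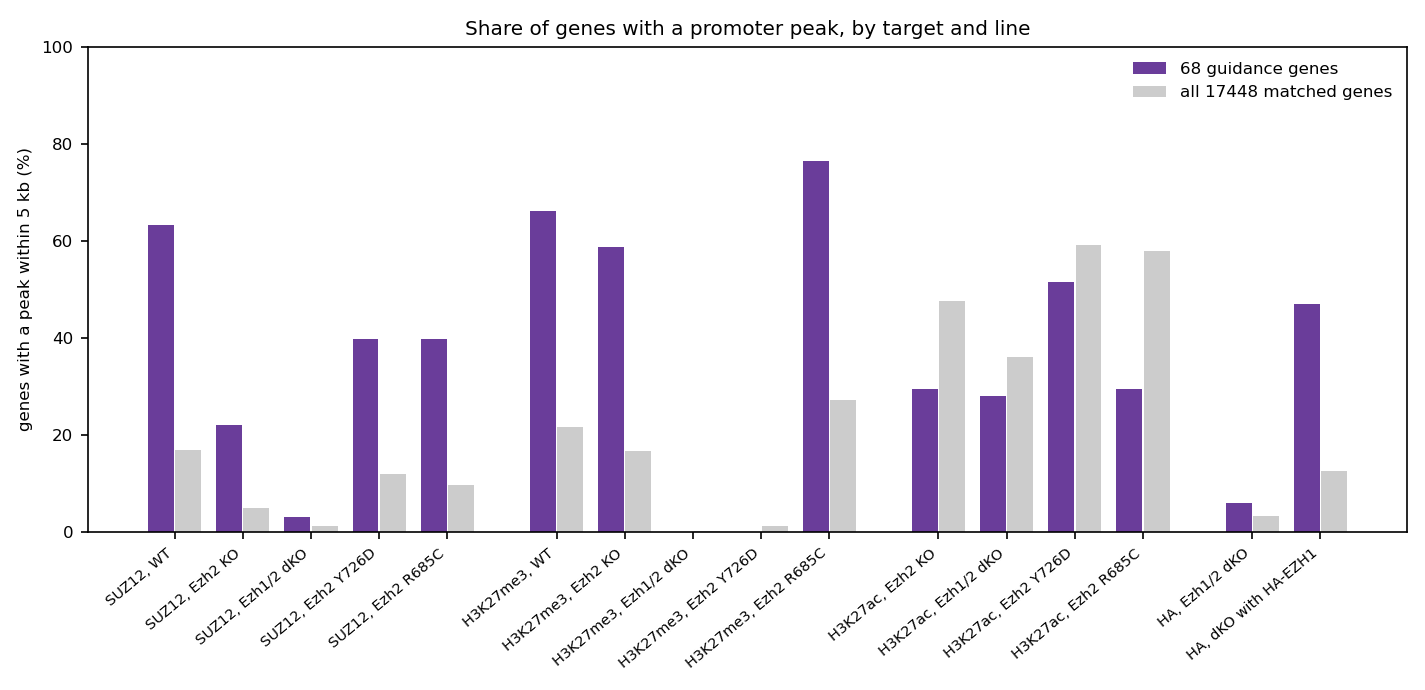
Percentage of genes with at least 1 peak within 5 kb of a start site, for the 68 guidance genes and for all 17448 matched genes, by target and line. SUZ12 and H3K27me3 bars of the guidance genes stand above those of all genes wherever both have peaks (63.2% against 16.9% for SUZ12 in WT), and their H3K27ac bars stand below in all 4 mutant lines.

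H3K27ac lay at a smaller share of the guidance genes than of all genes in each mutant line. In Ezh2 KO it was at 20 (29.4%, against 47.6% of all genes) and in Ezh1/2 dKO at 19 (27.9%, against 35.9%). In Ezh2 Y726D it was at 35 (51.5%, against 59.1%) and in Ezh2 R685C at 20 (29.4%, against 57.9%). The mark was found in all 4 lines at 13 guidance genes: Efna3, Efnb3, Epha2, Epha4, Ephb3, Ephb4, Nrp2, Ntn5, Plxna3, Plxnb1, Plxnb2, Robo1 and Sema4b. At 33 it was found in none. Of all 17448 genes, 5550 had it in all 4 lines and 5617 in none. Ntn3, Plxna2, Sema4c and Sema5b had H3K27ac in Ezh1/2 dKO and Ezh2 Y726D but not in Ezh2 KO, and all 4 had SUZ12 in WT. Over all genes, 230 with SUZ12 in WT had this pattern. Another 11 genes had H3K27ac in Ezh2 Y726D but neither in Ezh2 KO nor in Ezh1/2 dKO: Efna1, Efna5, Ephb6, Ntng2, Sema3b, Sema3f, Sema4a, Sema4g, Sema6a, Sema6c and Slit2. Among the 43 guidance genes with SUZ12 in WT, H3K27ac lay at 7 in Ezh2 KO, 7 in Ezh1/2 dKO, 17 in Ezh2 Y726D and 6 in Ezh2 R685C, which is 16.3%, 16.3%, 39.5% and 14% of them. Of all 2945 genes with SUZ12 in WT, 15.9%, 19.97%, 48.0% and 22.5% had H3K27ac in these lines. The lists held 25483, 17618, 40829 and 41185 H3K27ac peaks in these lines, and the Ezh2 R685C list, the longest, gave 20 guidance genes where the Ezh2 Y726D list gave 35.

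The dimethyl mark H3K27me2, an intermediate on the way to H3K27me3, was deposited as broad regions with low -log10 p values. It was compared by the share of the promoter window inside such regions, at the 65 guidance genes on chromosomes present in the lists of all 4 lines with RNA-seq. At the 40 with SUZ12 in WT, the median share was 8.41% in WT and 82.8% in Ezh2 KO, with 16.5% for Ezh1/2 dKO and 22% for Ezh2 Y726D. At the 25 without SUZ12 it was 36.8%, 11.9%, 11.1% and 18%, in the same order. The 2809 genes of the table with a SUZ12 peak in WT had medians of 7.50%, 74.7%, 17.4% and 23.1%, so the high coverage in Ezh2 KO was not particular to guidance genes. The median strongest -log10 p of the guidance genes was 4.36 in Ezh2 KO and between 1.43 and 1.51 in the other lines. Regions of open chromatin by ATAC-seq, which were weak and covered much of the genome, took up 43.0%, 37.8%, 43.1% and 42.6% of the guidance gene windows in that order and 39.3%, 35.4%, 40.1% and 39.1% of all windows.

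**Figure D3:**
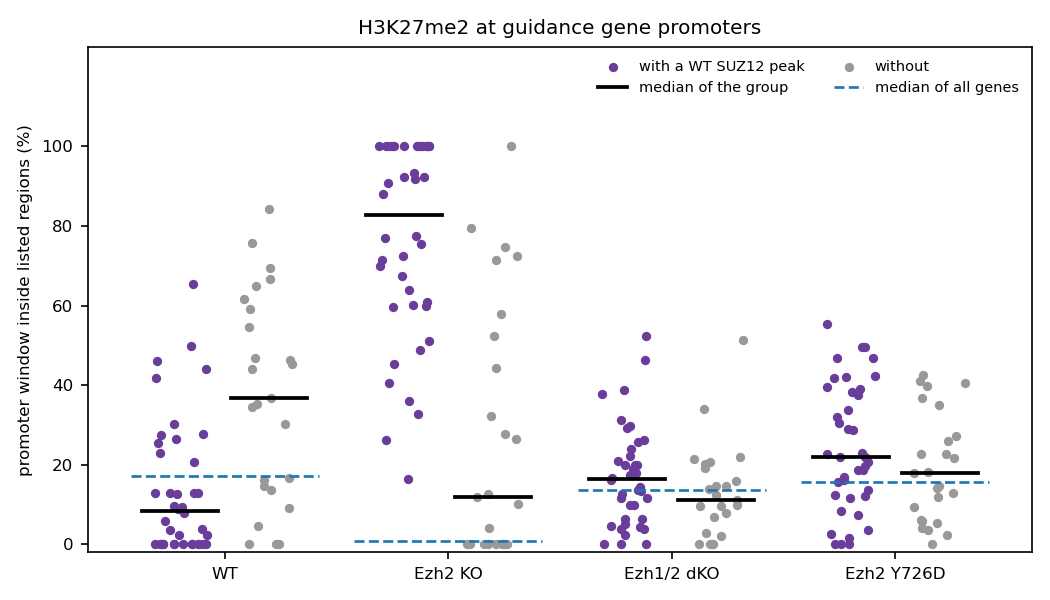
Percentage of the promoter window inside listed H3K27me2 regions for each of 65 guidance genes in 4 lines, split by a SUZ12 peak in WT, with the median of each group as a black bar and the median over all genes as a dashed line. In Ezh2 KO the genes with SUZ12 in WT (median 82.8%) lie above those without (median 11.9%), and in WT the medians stand in the opposite order.

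Guidance genes with a SUZ12 peak in WT had a median normalized count of 7.96 in WT (0 to 483), and those without had a median of 41.3 (0 to 1322). A mean normalized count of at least 5 over the 8 libraries was required for a test, which 51 of the 68 guidance genes and 13872 genes in all passed. The other 17 had 3 to 35 reads over all libraries together, and 12 of them had SUZ12 in WT. A gene was called at a limma adjusted p under 0.1, over all 13872 genes, and a change of at least 2-fold, on the scale of log2(normalized count + 1), which understates the change of low genes. The comparisons with WT share the WT libraries. In Ezh2 KO, 0 guidance genes rose and 1, Dcc, fell, against 0.0937% and 0.31% of all genes. In Ezh1/2 dKO, 4 rose (Slit2, Sema7a, Efna5 and Slit3) and 0 fell, against 3.63% and 0.389% of all genes. In Ezh2 Y726D, 2 rose (Sema4a and Sema7a) and 0 fell, against 1.66% and 1.06% of all genes. The median log2 fold change of the 51 was -0.03 in Ezh2 KO and 0.60 in Ezh1/2 dKO, with 0.45 for Ezh2 Y726D, beside medians of -0.01, 0.01 and -0.01 over all genes. A positive change was measured at 24, 42 and 37 of the 51. The rises in Ezh1/2 dKO were not called without either of its libraries, where nearly all calls over all genes were lost too. In these fits the median log2 fold change of the 51 was 0.58 without replicate 1 and 0.65 without replicate 2. Of the rises in Ezh2 Y726D, Sema4a kept its call in every fit that left out 1 library. Sema7a kept its call only in the fit without WT replicate 1.

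Both libraries of Ezh1/2 dKO lay above both of WT at 31 guidance genes (28% of all genes) and below at 4 (24.5%). In Ezh2 Y726D 25 lay above (19%) and 4 below (18.1%). In Ezh2 KO 8 lay above (18%) and 11 below (17.6%), close to the background or below it for the rises. At an unadjusted p under 0.05, 5 guidance genes were higher in Ezh2 KO (4.13% of all genes), 1 was lower in Ezh1/2 dKO (6.62%) and 2 were lower in Ezh2 Y726D (6.81%), the directions without a limma call. edgeR and DESeq2 on the recovered reads also called 0 guidance genes in these 3 directions. Splitting by SUZ12 in WT, the 31 tested guidance genes with a peak had a median log2 fold change of 0.67 in Ezh1/2 dKO and the 20 without a peak one of 0.19. Over all genes these medians were 0.74 (n = 1907) and -0.04 (n = 11693). The 4 guidance genes that rose in Ezh1/2 dKO all had a SUZ12 peak in WT, where 12.5% of all tested genes with a peak rose.

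**Figure D4:**
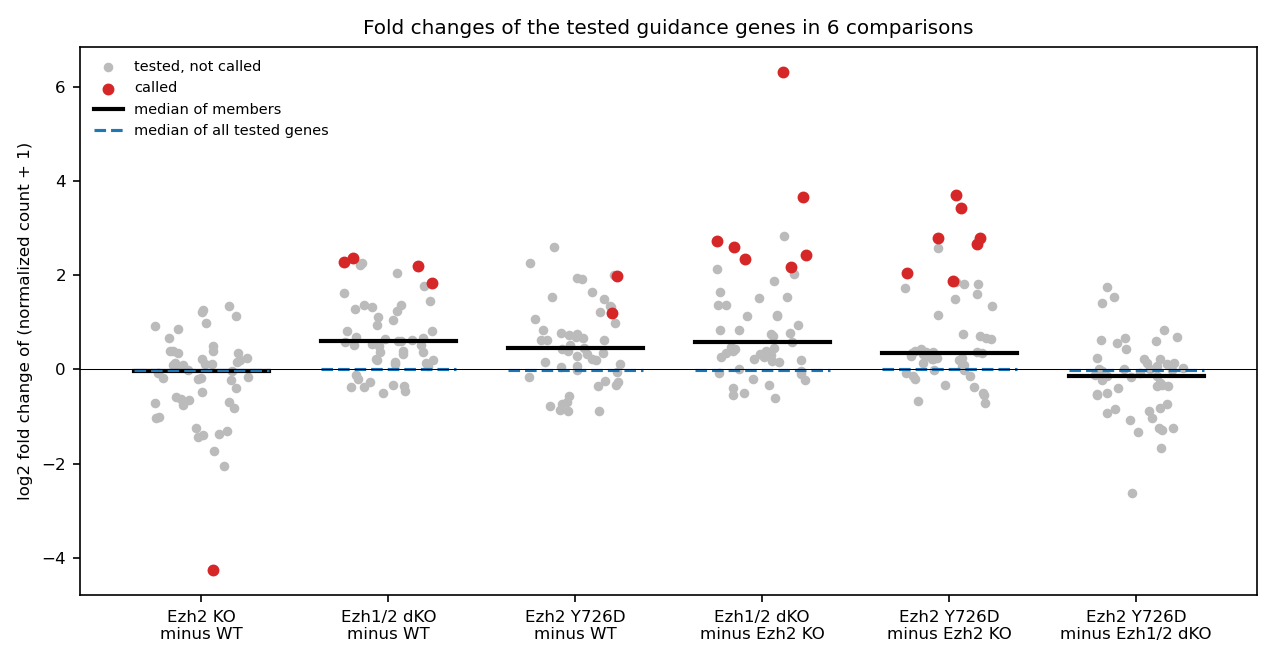
Log2 fold change of (normalized count + 1) for each of the 51 tested guidance genes in the 6 comparisons, with called genes in red, the median of the guidance genes as a black bar and that of all tested genes as a dashed line. The guidance genes centre near 0 in Ezh2 KO against WT (median -0.03) and above 0 in Ezh1/2 dKO (0.60) and Ezh2 Y726D (0.45).

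Between the mutant lines, 7 guidance genes were higher in Ezh1/2 dKO than in Ezh2 KO (Dcc, Sema6a, Sema5b, Efna5, Sema7a, Sema3d and Efna2) and 0 were lower, against 3.52% and 0.0577% of all genes. In Ezh2 Y726D, 7 were higher than in Ezh2 KO (Sema5b, Epha1, Dcc, Sema6a, Efna2, Efna5 and Sema7a) and 0 were lower, against 2.31% and 1.21%. The comparisons with Ezh2 KO share its libraries. Without either Ezh1/2 dKO library, only the Dcc call over Ezh2 KO in that line was kept, and most calls over all genes were lost too. In these fits the median log2 fold change of the 51 was 0.76 without replicate 1 and 0.57 without replicate 2. Without Ezh2 KO replicate 1 only the Sema5b call in Ezh2 Y726D was kept, again with most rises over all genes lost. Between Ezh2 Y726D and Ezh1/2 dKO, limma called 0 in either direction, against 0.187% of all genes higher and 1.49% lower. At an unadjusted p under 0.05, the members lower than in Ezh2 KO numbered 2 in Ezh1/2 dKO (2.8% of all genes) and 3 in Ezh2 Y726D (7.16%). Between Ezh2 Y726D and Ezh1/2 dKO 5 were higher (4.55%) and 5 lower (8.55%) at that threshold. edgeR called 0 guidance genes in these 4 directions, and DESeq2 called 1, Dcc, lower in Ezh2 Y726D than in Ezh1/2 dKO. The median log2 fold change of the 51 was 0.59 for Ezh1/2 dKO over Ezh2 KO, 0.35 for Ezh2 Y726D over Ezh2 KO and -0.13 for Ezh2 Y726D over Ezh1/2 dKO, beside -0.01, 0.00 and -0.02 over all genes.

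**Figure D5:**
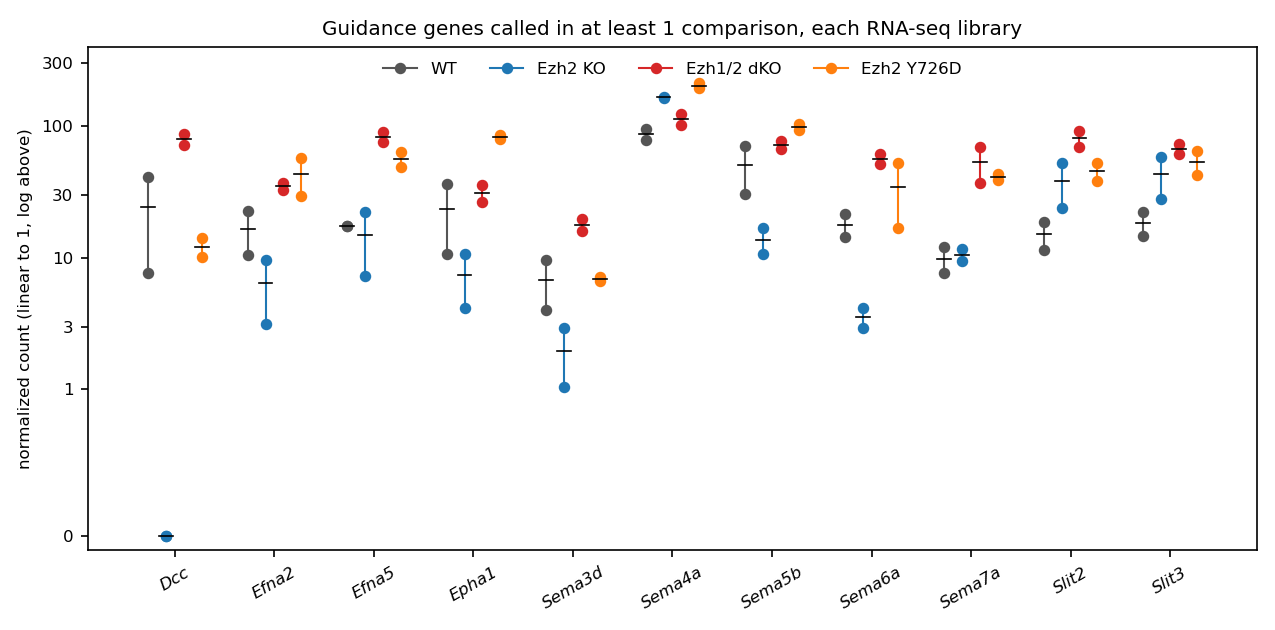
Normalized count of the 11 guidance genes called in at least 1 comparison, 1 point per RNA-seq library coloured by line, with a line joining the libraries of a line and a dash at their mean, on an axis that is linear up to 1 and logarithmic above. The 2 Ezh2 KO libraries are lowest for Dcc, at 0, and both Ezh1/2 dKO libraries lie above both WT libraries for Slit2, Slit3, Sema7a and Efna5.

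Ephrins are ligands tethered to the cell surface, the A class by a lipid anchor and the B class by a transmembrane segment, and all 8 were tested. Efna5 (chr17:62953533-63230666, minus strand) stood at 17.3 and 17.3 in WT, 7.32 and 22.3 in Ezh2 KO, 75.8 and 90.6 in Ezh1/2 dKO, and 64.2 and 49.2 in Ezh2 Y726D. Ezh1/2 dKO and Ezh2 Y726D lay above the other lines in every library. The rise over WT in Ezh1/2 dKO was 2.19 ± 0.50 (log2, SE, n = 2 libraries per line, adjusted p = 0.0564). In Ezh2 Y726D the change of 1.64 ± 0.50 was not called against WT by limma (adjusted p = 0.154), but was called by DESeq2. Efna5 rose over Ezh2 KO in both lines, by 2.59 in Ezh1/2 dKO (adjusted p = 0.0319) and by 2.04 in Ezh2 Y726D (adjusted p = 0.0765). Without either WT library the call against WT in Ezh1/2 dKO was lost. Its promoter held SUZ12 in every line but Ezh1/2 dKO, with a -log10 p of 66.9 in WT, and an H3K27ac peak, over 327 bases, was listed in Ezh2 Y726D alone.

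Efna2 was at 22.7 and 10.6 in WT, 3.14 and 9.68 in Ezh2 KO, 37.1 and 32.9 in Ezh1/2 dKO, and 29.4 and 57.1 in Ezh2 Y726D. The Ezh2 KO libraries lay below all the others. Efna2 rose over Ezh2 KO by 2.43 ± 0.60 in Ezh1/2 dKO (adjusted p = 0.082) and by 2.66 ± 0.60 in Ezh2 Y726D (adjusted p = 0.0625), and was not called against WT in any line. It had H3K27me3 in WT, Ezh2 KO and Ezh2 R685C and no SUZ12 peak in any line. Efna4 was the ephrin with the highest level per kilobase of exon (181), at 252 and 279 in WT and 216 to 374 in the mutants, with H3K27ac in Ezh2 KO, Ezh2 Y726D and Ezh2 R685C. Efnb3, the highest B-class ephrin per kilobase (9.29), stood at 12 and 15.4 in WT and at 27.2 to 48.4 in all 6 mutant libraries, yet was not called against WT (adjusted p = 0.155 in Ezh1/2 dKO, 0.212 in Ezh2 Y726D and 0.327 in Ezh2 KO).

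Of the 13 Eph receptors, the receptor tyrosine kinases that bind ephrins, 9 were tested and none was among the genes called against WT. Epha1 (chr6:42308486-42323267, minus strand) stood at 10.7 and 36.6 in WT, 4.18 and 10.6 in Ezh2 KO, 35.4 and 26.6 in Ezh1/2 dKO, and 85.6 and 80.5 in Ezh2 Y726D. The Ezh2 Y726D libraries were above all others, and the WT libraries differed widely from each other. Over Ezh2 KO, Epha1 rose by 3.44 ± 0.61 in Ezh2 Y726D (adjusted p = 0.0297). Against WT the change in Ezh2 Y726D of 2.0 ± 0.61 was not called (adjusted p = 0.158). Zyx exons share 4.89% of the exonic bases of Epha1, and reads were counted without strand. The Epha1 promoter had SUZ12 and H3K27me3 in WT, with a SUZ12 -log10 p of 11.3. Epha4, which binds ephrins of both classes, had the highest level per kilobase among the Eph receptors (131). It stood at 600 and 791 in WT, 734 and 1056 in Ezh2 KO, 1101 and 1108 in Ezh1/2 dKO, and 581 and 657 in Ezh2 Y726D, and was not called in Ezh1/2 dKO (0.68 ± 0.20, adjusted p = 0.112). Ephb3 was at 76.0 and 78.0 in WT and at 97.3 to 174 in the mutants (0.99 ± 0.27 in Ezh2 KO, adjusted p = 0.263). Epha4 and Ephb3 had no SUZ12 or H3K27me3 peak in WT and carried H3K27ac in all 4 mutant lines. Ephb1, which kept SUZ12 in Ezh1/2 dKO, was too low for a test, with 1.33 and 3.85 in WT, 5.77 and 7.99 in Ezh1/2 dKO and 0 in the Ezh2 KO and Ezh2 Y726D libraries.

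Semaphorins are secreted or membrane-bound cues, many of them repellent, and 16 of the 20 were tested. Sema7a (chr9:57787920-57810671, plus strand), the semaphorin with a lipid anchor, was the only guidance gene called against WT in more than 1 line, Ezh1/2 dKO and Ezh2 Y726D. Its level was 12 and 7.70 in WT, 9.41 and 11.6 in Ezh2 KO, 37.1 and 69.3 in Ezh1/2 dKO, and 39.2 and 43.6 in Ezh2 Y726D. WT and Ezh2 KO overlapped, and the other lines lay above both. The rise over WT was 2.28 ± 0.46 in Ezh1/2 dKO (adjusted p = 0.0398) and 1.99 ± 0.46 in Ezh2 Y726D (adjusted p = 0.0756). Against Ezh2 KO it was 2.17 (adjusted p = 0.0478) and 1.89 (adjusted p = 0.0796). Of 18 alternative settings, the call against WT was kept in 16 for Ezh1/2 dKO and in 8 for Ezh2 Y726D. SUZ12 at Sema7a had a -log10 p of 55.8 in WT and 10.8 in Ezh2 Y726D and was listed in no other line, and no H3K27ac peak was found there.

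Sema4a (chr3:88239881-88265104, minus strand), a transmembrane semaphorin also known from immune cells, stood at 96.0 and 79.0 in WT, 166 and 164 in Ezh2 KO, 123 and 103 in Ezh1/2 dKO, and 212 and 194 in Ezh2 Y726D. The lines did not overlap, in the order WT, Ezh1/2 dKO, Ezh2 KO and Ezh2 Y726D. It rose over WT in Ezh2 Y726D by 1.21 ± 0.22 (adjusted p = 0.0376), and the change in Ezh2 KO of 0.92 ± 0.22 was not called (adjusted p = 0.197). Sema4a had no SUZ12 peak in any line, H3K27me3 in WT and Ezh2 R685C, and H3K27ac in Ezh2 Y726D only.

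Sema5b (chr16:35541231-35664818, plus strand) was at 30.7 and 70.3 in WT, 16.7 and 10.6 in Ezh2 KO, 77.5 and 67.5 in Ezh1/2 dKO, and 103 and 94.0 in Ezh2 Y726D. The Ezh2 KO libraries were the lowest. Sema5b rose over Ezh2 KO by 2.35 ± 0.43 in Ezh1/2 dKO (adjusted p = 0.0298) and by 2.79 ± 0.43 in Ezh2 Y726D (adjusted p = 0.0163). The difference of Ezh2 KO from WT, -1.73 ± 0.43, was not called by limma (adjusted p = 0.213), but was called by DESeq2. Its promoter combined SUZ12 in every line with H3K27me3 in WT, Ezh2 KO and Ezh2 R685C and H3K27ac in the other lines tested, at a -log10 p of 22.7 in Ezh1/2 dKO and 65.5 in Ezh2 Y726D.

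Sema6a, a transmembrane semaphorin that binds A-class plexins, was also lowest in Ezh2 KO, with lower counts. It stood at 21.3 and 14.4 in WT, 4.18 and 2.90 in Ezh2 KO, 51.9 and 61.3 in Ezh1/2 dKO, and 16.9 and 52.6 in Ezh2 Y726D. Over Ezh2 KO it rose by 3.67 ± 0.57 in Ezh1/2 dKO (adjusted p = 0.0146) and by 2.79 ± 0.57 in Ezh2 Y726D (adjusted p = 0.0441), where the 2 libraries lay far apart. Sema3d, a secreted semaphorin, was at 4.0 and 9.63 in WT, 1.05 and 2.90 in Ezh2 KO, 19.8 and 16.0 in Ezh1/2 dKO, and 7.13 and 6.71 in Ezh2 Y726D. Only its rise of 2.73 ± 0.63 over Ezh2 KO in Ezh1/2 dKO was called (adjusted p = 0.0655), on few reads. Both genes had SUZ12 and H3K27me3 in WT. Sema4b had the highest level per kilobase of all guidance genes (216), with 1259 and 1385 in WT and 857 to 1299.6 in the mutants, no SUZ12 or H3K27me3 peak in WT, and H3K27ac in all 4 mutant lines. Sema3b and Sema6c, the highest of their classes per kilobase at 7.56 and 5.07, overlapped WT in every mutant line.

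Plexins and neuropilins are the receptors of the semaphorins, the plexins as the signalling chains and the neuropilins as binding co-receptors. Of the 9 plexins 8 were tested, both neuropilins were tested, and none was among the called genes of any comparison. Plxnb2 was at 635 and 801 in WT and at 669 to 927 in the mutants, and Plxna1 at 446 and 521 in WT and 464 to 634 in the mutants. Nrp2, at 339 and 363 in WT, was 295 and 256 in Ezh1/2 dKO and 436 and 441 in Ezh2 Y726D, while SUZ12 lay at its promoter in WT with a -log10 p of 64.1. Nrp2 combined a high level in WT with both SUZ12 and H3K27me3, and carried H3K27ac in all 4 mutant lines. Plxnc1 and Plxnd1 were low, at 3.36 to 16.5 and 0 to 15.7 over the 8 libraries. Plxnd1, the plexin of vascular semaphorin signalling, had the next strongest SUZ12 peak to Sema5b in WT among the genes named here, at a -log10 p of 149.

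Slits are secreted repellents of axons, and Robo proteins are their receptors. Slit2 (chr5:48374394-48697521, plus strand) stood at 18.7 and 11.6 in WT, 24.0 and 52.3 in Ezh2 KO, 69.2 and 92.3 in Ezh1/2 dKO, and 38.3 and 52.6 in Ezh2 Y726D. All mutant libraries lay above WT, those of Ezh1/2 dKO highest. The rise over WT in Ezh1/2 dKO was 2.37 ± 0.46 (adjusted p = 0.0364), and the change of 1.55 ± 0.46 in Ezh2 Y726D was not called (adjusted p = 0.149). Slit3 (chr11:34934726-35522009, plus strand) was at 14.7 and 22.1 in WT, 58.6 and 28.1 in Ezh2 KO, 61.8 and 72.8 in Ezh1/2 dKO, and 65.1 and 42.5 in Ezh2 Y726D. It too was above WT in every mutant library, and rose in Ezh1/2 dKO by 1.84 ± 0.44 (adjusted p = 0.0682). Neither gene was called in Ezh2 KO (Slit2 1.22 ± 0.46, adjusted p = 0.464, and Slit3 1.13 ± 0.44, adjusted p = 0.49). All 3 Slits had SUZ12 in WT and H3K27me3 in Ezh2 KO and Ezh2 R685C, and H3K27ac was found at Slit2 in Ezh2 Y726D alone. Of the 4 Robo receptors 2 were tested and neither was called in the main limma fit. Robo1, the highest Robo receptor per kilobase (37.6), was at 327 and 509 in WT and at 245 and 202 in Ezh2 Y726D (-0.87 ± 0.26, adjusted p = 0.156). Robo4, known from endothelial cells, was at 9.34 and 53.9 in WT and at 205 and 99.6 in Ezh2 Y726D (2.59 ± 0.69, adjusted p = 0.11), with WT libraries far apart. DESeq2 called this rise, and so did limma with a pseudocount of 5.

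Netrins are secreted cues, with the lipid-anchored netrin-Gs as relatives, and Dcc mediates attraction to Ntn1 while the Unc5 receptors mediate repulsion. Dcc was at 41.4 and 7.70 in WT, 0 and 0 in Ezh2 KO, 71.7 and 87.0 in Ezh1/2 dKO, and 14.3 and 10.1 in Ezh2 Y726D. No read of Dcc was counted in Ezh2 KO, and the WT libraries differed by more than those of any other line. With the reads of each line pooled and a floor of 3 reads for Ezh2 KO, its level was 14.5-fold lower in Ezh2 KO than in WT. The 39 WT reads were 31 and 8 in the 2 libraries, and the pooled fold takes no account of that spread. The limma log2 change was -4.26 ± 0.72 (adjusted p = 0.0663). This call was lost without WT replicate 1, either Ezh2 KO library or either Ezh1/2 dKO library. By the same pooled floor, Dcc was 52.5-fold higher in Ezh1/2 dKO than in Ezh2 KO (185 reads, limma adjusted p = 0.00369). In Ezh2 Y726D it was 8.23-fold higher than in Ezh2 KO (25 reads, limma adjusted p = 0.0388). Its promoter had SUZ12 in WT only, at a -log10 p of 14.6, and H3K27me3 at 17.3 in WT, 65.6 in Ezh2 KO and 185 in Ezh2 R685C. These scores do not compare the amount of the mark between lines. All 4 Unc5 receptors and Dcc had SUZ12 and H3K27me3 in WT. Unc5b, the only Unc5 receptor tested, was at 68 and 69.3 in WT and 58.6 to 95.1 in the mutants and was not called. Ntn1 was at 271 and 582 in WT and 295 to 514 in the mutants, and had SUZ12 in WT and Ezh2 Y726D. Ntng2 was too low for a test, at 0 to 7.10, although SUZ12 at its promoter reached a -log10 p of 103 in WT.

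Further guidance genes were taken from 2 other lists. Of 27 tested cues and receptors outside these families, Gpc1 and L1cam rose in Ezh1/2 dKO against WT (log2 changes 1.67 and 2.15) and Gpc1 in Ezh2 Y726D (1.35). Gpc1 is a heparan sulfate proteoglycan that binds Slits, and L1cam an axonal adhesion molecule. Over Ezh2 KO, Fzd3, Gpc1, Lingo1 and Nfasc rose in Ezh1/2 dKO and Fzd3, Gpc1 and Nfasc in Ezh2 Y726D. Of 47 tested intracellular effectors, Dpysl5, Met, Mical2 and Vav3 rose in Ezh1/2 dKO against WT and Met in Ezh2 Y726D (2.18). Over Ezh2 KO, Crmp1, Dpysl5, Farp1, Met and Trio rose in Ezh1/2 dKO and Crmp1 and Met in Ezh2 Y726D. Met is a receptor tyrosine kinase and the others are cytoskeletal or signalling proteins. The limma adjusted p of the calls in these lists ran from 0.0154 to 0.0974. Of all tested genes, 3.63% rose in Ezh1/2 dKO and 1.66% in Ezh2 Y726D against WT, and 3.52% and 2.31% over Ezh2 KO. The median log2 change against WT in Ezh1/2 dKO was 0.37 for the cues and receptors and 0.15 for the effectors, beside 0.60 for the guidance families and 0.01 for all genes.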

How the data were processed

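RNA-seq of 8 mouse ESC libraries and peak lists of ChIP-seq and ATAC-seq from the same lines were used. For RNA-seq the authors made SMART-seq2 libraries, aligned them with TopHat, counted reads per gene with HTSeq-count without strand, and divided the counts by DESeq2 size factors. The deposited values are therefore a signal per gene and library: normalized counts, of which 100.0% in every library are whole multiples of 1 read (tolerance 0.01). For ChIP-seq and ATAC-seq the authors used Bowtie for alignment to mm9, Picard to drop duplicates and MACS2 to call peaks. In the deposited lists stands the -log10 p of each peak, at least 10 for SUZ12, H3K27me3 and H3K27ac, and positions only for HA, where no score was used. A spike-in, where the authors added one, does not enter a list of peaks. H3K27me1 regions were listed on different chromosomes in different lines and were not used, nor were the authors' tables of fold changes and p-values against WT.

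Normalized counts were tested with limma 3.58.1 in R 4.3.3 on log2(value + 1), in 1 fit of all 8 libraries with 1 mean per line, so that the lines share 1 estimate of the spread. Genes needed a mean of at least 5. Calls needed a Benjamini-Hochberg adjusted p under 0.1 over all genes tested and 2-fold. edgeR 4.0.16 and DESeq2 1.42.0 on the recovered reads, another pseudocount, other filters, a replicate block, single libraries left out and stricter peak rules were alternatives. Promoters were the 5 kb on each side of every annotated start site (GENCODE, mm9), where 1 base of overlap counted. Of 18055 genes, 16570 were matched to it by symbol and 878 by a synonym (Python 3.11.15). Promoter sequences came from RefSeq, for 58 of the 68 genes.

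Named genes are every called one, the 5 with the lowest p in each comparison with WT, the highest of each subfamily per kilobase, and those with SUZ12 in Ezh1/2 dKO. The members and lists were chosen with earlier results of these data known.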

Additional observations from a re-analysis of the deposited data

Results flagged for a closer look

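The change against WT differed between Ezh2 KO and the other mutant lines at 8 guidance genes, as tested by the direct comparison of the mutant lines (limma, log2 scale, 2 libraries per line). The change in Ezh1/2 dKO minus that in Ezh2 KO was 6.32 for Dcc, 3.67 for Sema6a, 2.73 for Sema3d, 2.59 for Efna5, 2.43 for Efna2, 2.35 for Sema5b and 2.17 for Sema7a. The change in Ezh2 Y726D minus that in Ezh2 KO was 3.70 for Dcc, 3.44 for Epha1, 2.79 for Sema5b, 2.79 for Sema6a, 2.66 for Efna2, 2.04 for Efna5 and 1.89 for Sema7a. The value for Dcc rests on Ezh2 KO libraries without a read. These comparisons share the Ezh2 KO libraries, and the cause of the differences was not tested.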

How the results depend on the processing

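In Ezh2 KO against WT the 1 fall (Dcc) became 0 with a pseudocount of 5, without the filter on low genes and in edgeR. It also became 0 in a fit of the 4 libraries compared, and DESeq2 gave 2 falls (Dcc and Sema5b). Over all genes the 43 falls became 32, 28, 23, 23 and 99 in that order. Without the filter 18055 genes were tested. In Ezh2 Y726D against WT the 2 rises became 1 without the filter and 4 in DESeq2 (Efna5, Robo4, Sema4a and Sema7a). In the 4 libraries they became 0. Over all genes the 230 rises became 167, 287 and 20 in that order. Over Ezh2 KO, the 7 rises in Ezh2 Y726D became 4 without the filter and 3 in the 4 libraries, and the 7 in Ezh1/2 dKO became 16 in the 4 libraries. Over all genes the 321 rises in Ezh2 Y726D became 256 and 146, and the 488 in Ezh1/2 dKO became 1124. The 4 rises in Ezh1/2 dKO against WT became 7 in the 4 libraries, and the 503 of all genes became 589. Ezh2 Y726D against Ezh1/2 dKO had 1 fall in place of 0 with a pseudocount of 5, without the filter, in DESeq2 and in the 4 libraries. Over all genes the 207 falls became 296, 169, 273 and 133. With 2-fold and an unadjusted p under 0.05, the rises numbered 3 (Ezh2 KO), 12 (Ezh1/2 dKO) and 12 (Ezh2 Y726D) against WT, 17 and 15 over Ezh2 KO and 2 between the last lines, and the falls 4 in Ezh2 KO and 3 between the last lines. Of all 13872 genes tested, 1.70%, 8.61% and 4.79% rose by this rule against WT, 8.90% and 6.08% over Ezh2 KO and 0.843% between the last lines, and 2.65% and 5.49% fell in the comparisons with falls.

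Leaving out 1 library gave 0 to 7 rises in Ezh1/2 dKO and 1 to 3 in Ezh2 Y726D against WT, 0 to 1 falls in Ezh2 KO and in Ezh2 Y726D, and, over Ezh2 KO, 1 to 9 rises in Ezh2 Y726D and 1 to 10 in Ezh1/2 dKO, and 0 to 1 falls between the last lines. The rises in Ezh1/2 dKO against WT were lost without its replicate 1 or replicate 2, and of those over Ezh2 KO Dcc alone was kept. Most calls over all genes were lost in these fits as well. The fall of Dcc in Ezh2 KO was lost without WT replicate 1, either Ezh2 KO library or either Ezh1/2 dKO library. In Ezh2 Y726D over Ezh2 KO, 1 rise (Sema5b) was left without Ezh2 KO replicate 1 and 2 (Efna5 and Epha1) without replicate 2. A line left with 1 library is assumed to vary like the others. Of the 21 calls of single genes, 0 reversed under any alternative, and Dcc over Ezh2 KO in Ezh1/2 dKO was called in 18 of 18.

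The labels number the replicates of every line. The deviations of same-numbered libraries correlated at 0.22 to 0.29 between mutant lines and at -0.41 to -0.07 between WT and a mutant line. Whether the numbers pair the libraries cannot be told from these values. With a replicate block the falls in Ezh2 KO were 0 and the rises in Ezh2 Y726D 1 against WT, the rises in Ezh1/2 dKO 5 against WT and 6 over Ezh2 KO, and those in Ezh2 Y726D 5 over Ezh2 KO. Over all genes these counts were 25, 200, 464, 405 and 262.

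At a peak -log10 p of at least 20, guidance genes with SUZ12 numbered 8 in Ezh2 Y726D, 8 in Ezh2 KO and 0 in Ezh1/2 dKO, those with H3K27me3 24 in WT, and those with H3K27ac 18 in Ezh2 Y726D, 12 in Ezh2 R685C, 6 in Ezh1/2 dKO and 5 in Ezh2 KO. Of all genes, these rules took 2.58%, 2.62% and 0.0344% for SUZ12, 8.28% for H3K27me3 and 31.3%, 42.2%, 11.9% and 23.6% for H3K27ac. With each list shortened to its strongest peaks, as many as the shortest list of that target that was compared, SUZ12 lay at 18 in WT, 15 in Ezh2 KO, 18 in Ezh2 Y726D and 20 in Ezh2 R685C, H3K27me3 at 29 in WT and at 35 in both Ezh2 KO and Ezh2 R685C, and H3K27ac at 14 in Ezh2 KO, 19 in Ezh1/2 dKO, 25 in Ezh2 Y726D and 12 in Ezh2 R685C. Within 1 kb, H3K27ac lay at 12 in Ezh2 KO and HA at 1 in untagged cells. With 500 bases of overlap, SUZ12 lay at 1 in Ezh1/2 dKO, H3K27ac at 12 in Ezh2 KO and at 12 in Ezh1/2 dKO, and HA at 0 in untagged cells. With 2 libraries per line and 3604123 to 5181553 reads, the 17 guidance genes below the filter could not be tested.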
